A study of Mus musculus with 6 samples.

Results

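Gbp2 and Oasl2 are interferon-induced genes, and their reads were followed across 6 RNA-seq libraries of mouse embryonic stem cells. The members were the rows named Gbp2 and Oasl2, 2 of the 1653 genes listed in every library, and both were found in all 6 libraries. The libraries fall into 2 groups, wild type (n = 3) and Yaf2KO (n = 3), both labelled as strain C57BL/6. Embryonic stem cells are self-renewing, pluripotent cells derived from the early embryo. The Yaf2KO cells were made with Cas9, and the labels do not say how many clones they came from. Cells of both genotypes grew in serum with leukemia inhibitory factor on mouse embryonic fibroblasts that had been inactivated with mitomycin-C. Such feeder cells no longer divide, but their RNA can enter a library. No label names an interferon treatment, and no label says that replicates were separate cultures, so each p-value reflects the scatter of these samples alone, and that scatter may be technical. YAF2 is a subunit of variant Polycomb repressive complexes 1, and its gene is not among the rows used here, so its transcript was not checked.

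Interferons are cytokines that are released when cells detect a pathogen. Their receptors activate JAK kinases and STAT transcription factors, which bind the interferon-stimulated response element (ISRE) and the gamma-activated site (GAS) in front of target genes. GBP2 is a guanylate-binding protein, a large GTPase that assembles on the vacuoles and membranes of intracellular pathogens and is strongly induced by interferon gamma. OASL2 belongs to the oligoadenylate synthetases, which sense double-stranded RNA, and carries ubiquitin-like repeats at its end. Pluripotent stem cells are known for a weak interferon response compared with differentiated cells such as fibroblasts.

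Gbp2 (ENSMUSG00000028270) is a protein-coding gene on the plus strand at chr3:142620602-142638008, in mm10 coordinates. Oasl2 (ENSMUSG00000029561) is a protein-coding gene on the plus strand at chr5:114896936-114912234. The counts are sums over each whole gene, so exons, introns and isoforms cannot be told apart. Gbp2 lies in a cluster of paralogues: Gbp5, Gbp7, Gbp3 and Gbp2b are within 500 kb, and none of these 4 is among the rows used here. Its close relatives share sequence, so reads assigned to Gbp2 are uncertain to that extent. The microRNA gene Mir6381 lies inside Gbp2 on the opposite strand, and no strand setting is stated, so its reads could not be separated. Oasl1, the paralogue next to Oasl2, is not among the rows used here either, and no annotated gene overlaps Oasl2.

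Promoter windows from RefSeq (GRCm38.p6, the mm10 assembly; 250 bases before to 50 after each start) were searched on both strands for the ISRE core GAAANNGAAA, the GAS core TTCNNNGAA and the TATA box TATAAA. The windows below are shown because they hold the response element through which interferon signalling is known to act. Each is written 5′ to 3′ in the direction of its gene, and capitals mark the ISRE core or its reverse complement.
Gbp2, chr3:142620594-142620623, plus strand: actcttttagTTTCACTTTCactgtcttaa
Oas1a, chr5:120907520-120907549, minus strand: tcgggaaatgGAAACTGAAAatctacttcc
Isg15, chr4:156200865-156200894, minus strand: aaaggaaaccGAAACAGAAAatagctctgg
Tgtp1, chr11:48992304-48992333, minus strand: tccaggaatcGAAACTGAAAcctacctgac
Cxcl10, chr5:92349083-92349112, minus strand: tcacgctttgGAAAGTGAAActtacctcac
Ifitm2, chr7:140955988-140956017, minus strand: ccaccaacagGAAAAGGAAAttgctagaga

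In Gbp2 the match spans bases 59 to 50 before the RefSeq start, on the opposite strand to the gene. GENCODE places the start of Gbp2 further upstream, so in that annotation the match falls inside the first exon. The Gbp2 window held no GAS core and no TATA box match. Oasl2 had no ISRE core and no GAS core in its window, which says only that these letters are not in it. The 250 bases in front of its start are shown for comparison, with the one TATA box match, on the opposite strand, in capitals.
Oasl2, chr5:114896684-114896933, plus strand: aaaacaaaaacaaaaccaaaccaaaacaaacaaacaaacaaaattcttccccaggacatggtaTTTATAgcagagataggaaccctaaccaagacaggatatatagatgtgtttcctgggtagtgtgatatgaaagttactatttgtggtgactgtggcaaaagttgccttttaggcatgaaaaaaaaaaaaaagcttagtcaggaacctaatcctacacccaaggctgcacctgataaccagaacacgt

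Over all 32851 RefSeq windows, 3.44% held the ISRE core, 8.3% the GAS core and 13.6% the TATA box. Among the 885 windows of listed genes 4.75% held the ISRE core. Of the 18 interferon genes described below, 14 had a window, and the 6 shown above held the ISRE core. Counted by gene in the same way, 39 of 716 listed genes and 1079 of 27025 genes with a window held it. A match is a description of the sequence and not evidence of binding. In all 7 motifs were searched, and the 3 above were chosen for display after the matches were seen. Of the other 4, the AP-1 site TGACTCA matched once in the Gbp2 window (bases 102 to 96 before the start, opposite strand) and not in that of Oasl2, and 5.2% of all windows held it. A stricter form of the ISRE core, with GT between its GAAA repeats, has the very letters of the Gbp2 match and stood in 0.253% of windows. The Cxcl10 match shown above has the same letters. Neither gene's window held an NF-kB site (1 fixed sequence, in 0.155% of windows) or TTCNNNNGAA (6.95%).

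Gbp2 had more reads in every Yaf2KO library than in any wild-type library. It had 222, 121 and 183 reads in wild type 1 to 3 and 669, 916 and 665 in Yaf2KO 1 to 3. The group means were 175 ± 50.9 and 750.0 ± 144 reads (SD, n = 3 each), a 4.28-fold ratio of raw counts. Counting error was small beside this gap, since the 95% Poisson intervals reached 253 at most in wild type and started at 615 in Yaf2KO.

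Oasl2 was also higher in raw reads in all 3 Yaf2KO libraries. It had 49, 43 and 55 reads in wild type 1 to 3 and 388, 211 and 189 in Yaf2KO 1 to 3. The means were 49.0 ± 6.00 and 263 ± 109 reads (SD, n = 3 each), a ratio of 5.36. The genotypes did not overlap for either gene, but such separation was common among the rows used here. Raw counts separated completely in this direction in 27.4% of the 1653 listed genes, and in 73.3% of the 161 genes averaging 100 or more reads, the class to which both genes belong. Of these 161 genes 90 had a larger raw ratio than Gbp2 and 58 a larger one than Oasl2, around a median log2 ratio of 2.18, against 2.10 for Gbp2 and 2.42 for Oasl2. The separation of raw counts is therefore near the background of the list.

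**Figure D1:**
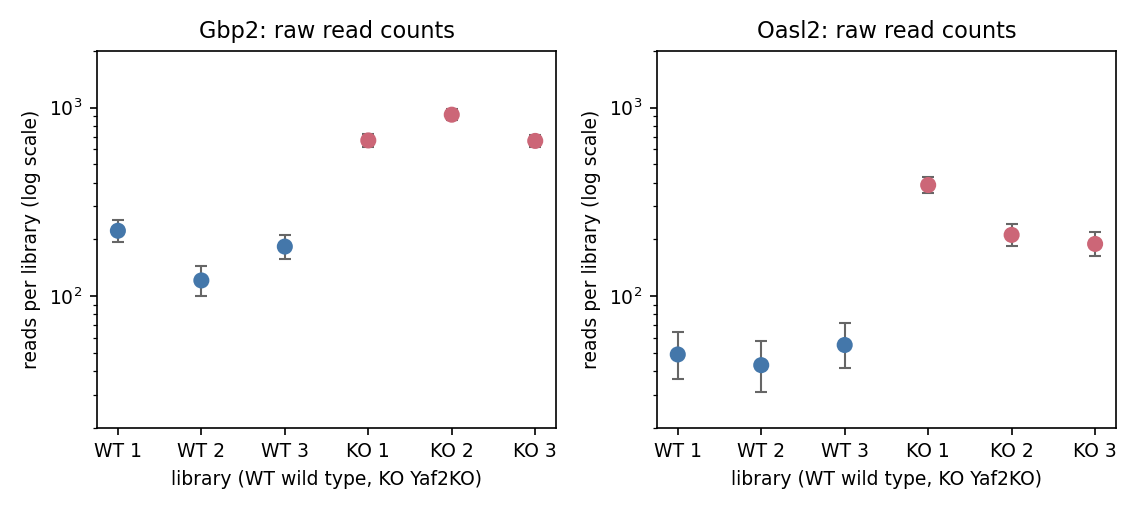
Raw read counts of Gbp2 (left) and Oasl2 (right) in each library on a log axis, wild type in blue and Yaf2KO in red; bars are exact 95% Poisson intervals, which cover counting error only. All 3 Yaf2KO libraries lie above all 3 wild-type libraries for both genes, from 665 reads for Gbp2 and 189 for Oasl2. Of the 161 listed genes averaging 100 or more reads, 73.3% separated in this way.

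The listed genes are a part of each library, and the sources used here do not state how they were selected. Their counts summed to 64979 ± 8321 in wild type and 281966 ± 155998 in Yaf2KO (SD, n = 3 each). By library the sums were 65595, 56367 and 72975 in wild type 1 to 3 and 451075, 251141 and 143682 in Yaf2KO 1 to 3. These sums are not sequencing depths. To compare genotypes, each library was therefore scaled on the listed genes with trimmed-mean factors (TMM), and values are given as CPM, counts per 1000000 of that scaled sum. A log2 fold change of 0 on this scale is the change of a typical listed gene.

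After this scaling Gbp2 no longer separated the genotypes. Its scaled level was 3313, 2088 and 2641 CPM in wild type 1 to 3 and 1378, 3613 and 5013 CPM in Yaf2KO 1 to 3. Yaf2KO 1 was the lowest of all 6 libraries and Yaf2KO 3 the highest, so the Yaf2KO values enclosed those of wild type. The means were 2681 ± 613 and 3335 ± 1833 CPM (SD, n = 3 each). The log2 fold change was 0.31 (SE 0.48, 95% interval -0.75 to 1.37), with an adjusted p of 0.95 by edgeR's quasi-likelihood test with Benjamini-Hochberg adjustment. Without Yaf2KO 3 it was -0.057, and with any other library left out it stayed above 0, up to 0.67 without Yaf2KO 1, so its sign rests on Yaf2KO 3.

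Oasl2 was nearly level in wild type and higher in 1 Yaf2KO library. Its scaled level was 731, 742 and 794 CPM in wild type 1 to 3 and 799, 832 and 1425 CPM in Yaf2KO 1 to 3. Yaf2KO 3 stood apart, while Yaf2KO 1 and 2 lay just above the wild-type range. The means were 756 ± 33.5 and 1019 ± 352 CPM (SD, n = 3 each), and the log2 fold change was 0.43 with an SE of 0.44 and a 95% interval of -0.56 to 1.41 (edgeR, adjusted p = 0.95). Without Yaf2KO 3 it was 0.13. The complete separation of the scaled Oasl2 values, which 6.12% of tested genes showed in this direction, rested on a gap of a few CPM and was lost with upper-quartile factors, where the lowest Yaf2KO library (720 CPM) lay below wild type (773 to 778 CPM). The wild-type coefficient of variation of scaled Oasl2, 4.43%, was smaller than the 13.5% to 15.2% that counting error alone gives at these read numbers.

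Neither gene passed the test, 0 of 2, where 0.798% of the 376 tested genes were called higher in Yaf2KO. The intervals still include a more than 2-fold higher level for each gene, so a change of that size was not excluded by these libraries. Of the 376 tested genes 110 had a larger log2 fold change than Gbp2 and 96 a larger one than Oasl2, around a median of -0.03. With all libraries taken as equally deep instead of scaled on the list, both genes were called (log2 fold change 2.10 for Gbp2 and 2.42 for Oasl2, adjusted p = 0.0224 each by edgeR). So were 75.7% (314) of the 415 genes tested that way, with a median of 2.12.

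**Figure D2:**
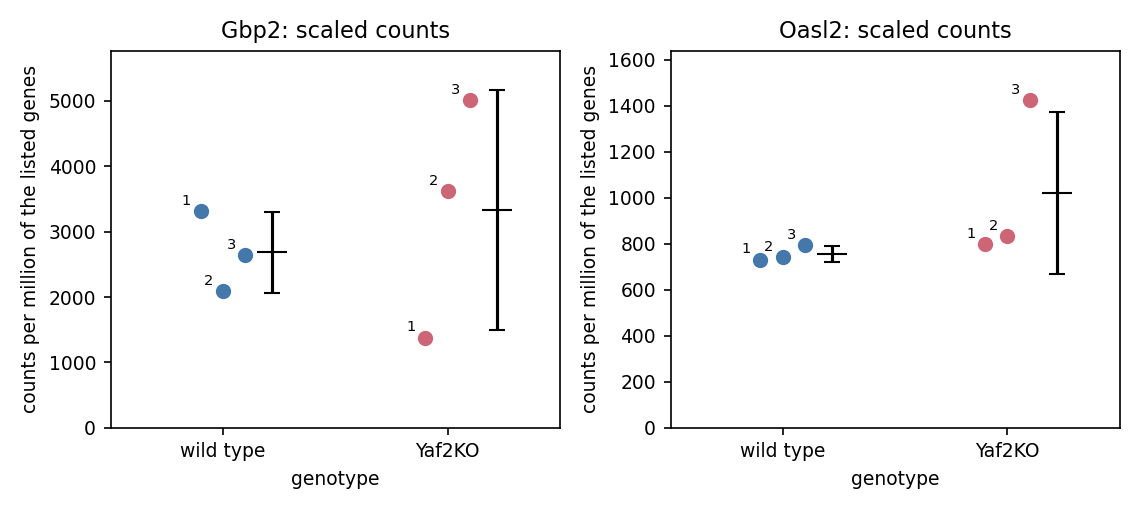
Scaled counts of Gbp2 (left) and Oasl2 (right), in CPM after TMM scaling on the list, one numbered point per library, with the mean and SD of each genotype (n = 3) in black. For Gbp2 the Yaf2KO values run from 1378 to 5013 and enclose wild type; for Oasl2 only Yaf2KO 3, at 1425, stands clear of the rest.

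The ratio of the 2 genes within a library needs no scaling, because depth cancels. Oasl2 made up 18.1%, 26.2% and 23.1% of the reads of both genes in wild type 1 to 3, with exact Clopper-Pearson 95% intervals of 13.7% to 23.2%, 19.7% to 33.6% and 17.9% to 29.0%. Its share was 36.7% (33.8% to 39.7%) in Yaf2KO 1, 18.7% (16.5% to 21.1%) in Yaf2KO 2 and 22.1% (19.4% to 25.1%) in Yaf2KO 3. Yaf2KO 2 and 3 lay within the wild-type range, and Yaf2KO 1 was the only library above it. Its interval was clear of those of the other 5 libraries, by a small margin for wild type 2, and these intervals cover counting error only.

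As a log2 ratio of Oasl2 to Gbp2 reads, the genotypes averaged -1.80 ± 0.35 in wild type and -1.57 ± 0.70 in Yaf2KO (SD, n = 3 each). The difference of 0.23 was smaller than either SD (exact permutation test over 20 splits, two-sided, p = 0.80, where 3 against 3 libraries cannot go below 0.10). Without Yaf2KO 1 the difference was -0.16. Unequal change of the 2 genes between the genotypes was thus not detected with 3 libraries each. In Yaf2KO 1 scaled Gbp2 was the lowest of the 6 libraries, while scaled Oasl2 lay within a few CPM of wild type 3.

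Per length, Gbp2 had more reads than Oasl2 in every library. Lengths were those of a single annotated transcript per gene, picked by its name, which need not be the main one. With 2516 bases for Gbp2 and 3123 for Oasl2, Gbp2 had 5.62, 3.49 and 4.13 times the reads per kilobase of Oasl2 in wild type 1 to 3. In Yaf2KO 1 to 3 it had 2.14, 5.39 and 4.37 times. With all annotated exons of Oasl2 merged (6374 bases, which include retained introns) the ratio ran from 4.37 to 11.5. The order of the 2 genes was the same in each library with both lengths.

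**Figure D3:**
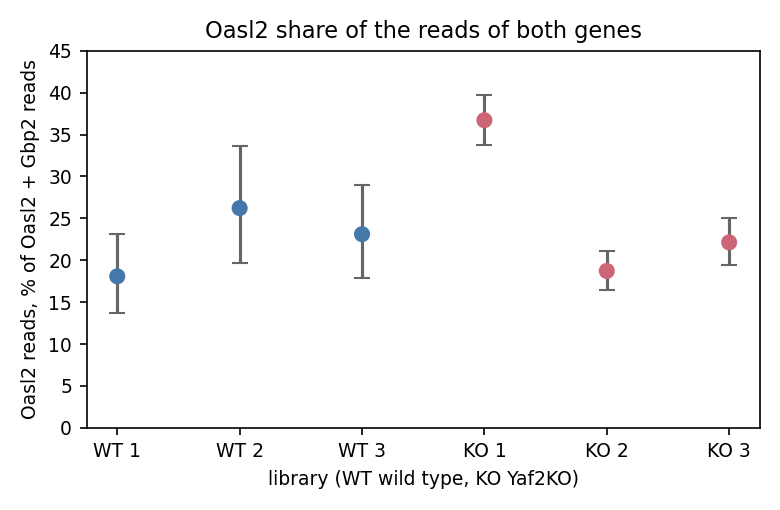
Oasl2 reads as a percentage of the reads of Oasl2 and Gbp2 together in each library, wild type in blue and Yaf2KO in red, with exact 95% intervals for counting error. Yaf2KO 1, at 36.7%, lies above the other 5 libraries, which run from 18.1% to 26.2%.

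The spread among the Yaf2KO libraries was set beside markers of the cells in the culture. Of 20 embryonic stem cell markers 6 are among the rows used here (Nanog, Klf4, Klf5, Tbx3, Tet2 and Dppa3), and all 6 had reads in every library, while Pou5f1 and Sox2 were not analysed here. Their summed scaled level was 56968 to 65025 CPM in wild type and 85578, 59202 and 39908 CPM in Yaf2KO 1 to 3. Of 36 fibroblast markers 7 are among the rows, among them the collagen gene Col1a1 and the smooth muscle genes Tagln, Acta2 and Cnn1. They summed to 22849 to 29548 CPM in wild type and 9300, 49289 and 30840 CPM in Yaf2KO 1 to 3. Postn was at 0 in wild type 3 and Yaf2KO 1, and Prrx1 at 0 in Yaf2KO 1. Of 10 endothelial markers 0 are among the rows.

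Gbp2 was low in the Yaf2KO library in which fibroblast markers were low. Relative to the wild-type mean, on log2 of CPM plus 1, Gbp2 stood at -0.93, 0.46 and 0.93 in Yaf2KO 1 to 3. The median of the 7 fibroblast markers stood at -1.69, 0.94 and -0.04, and that of the 6 stem cell markers at 0.52, -0.05 and -0.60. The stem cell markers did not all move together. Klf4 stood at 2.37, 1.13 and 0.92, while in Yaf2KO 3 the others ran from -0.24 (Tbx3) to -0.83 (Tet2). Oasl2 stood at 0.08, 0.14 and 0.91, with no drop in Yaf2KO 1. In Yaf2KO 3 scaled Gbp2 and Oasl2 were both at their highest level. In raw reads both were lowest of the Yaf2KO libraries in Yaf2KO 3 (665 and 189), which had the smallest listed sum of them (143682). The fibroblast median there was the value of Prrx1, which had 2 reads, and the other markers were split. Col1a1 (0.55), Tagln (0.32) and Cnn1 (0.82) stood above the wild-type mean, and Acta2 (-0.44), Myl9 (-0.52) and Postn (-0.65) below it. The part of feeder RNA in these values was not tested, and in such bulk samples fewer cells of a type and less RNA per cell cannot be told apart.

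**Figure D4:**
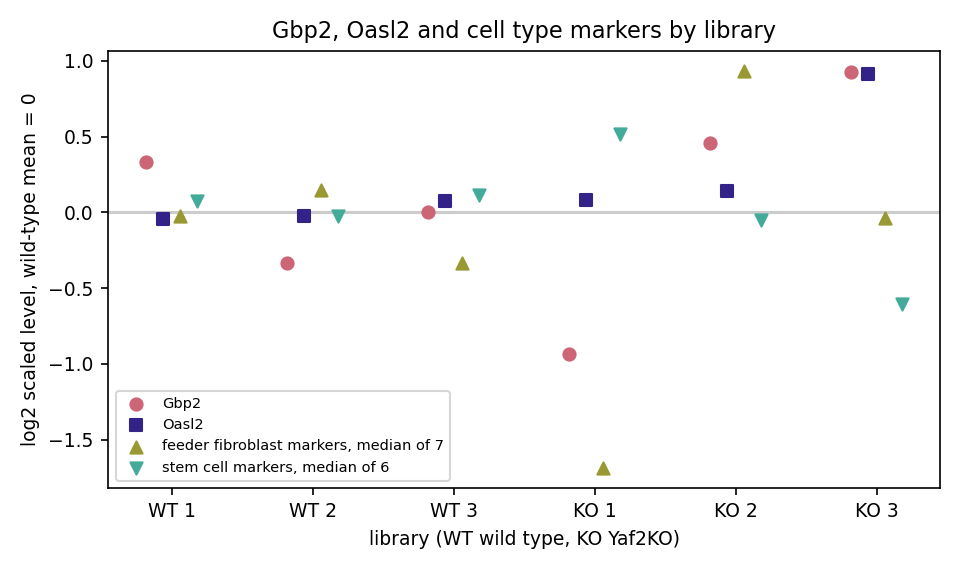
Scaled log2 levels relative to the wild-type mean (log2 of CPM plus 1) of Gbp2, Oasl2 and the medians of 7 fibroblast and 6 stem cell markers, by library. In Yaf2KO 1 Gbp2 (-0.93) and the fibroblast median (-1.69) are low and Oasl2 (0.08) is not; in Yaf2KO 3 Gbp2 and Oasl2 are both high.

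By scaled pattern the genes most like Gbp2 and Oasl2 were different ones. Likeness was the root mean square difference of log2 CPM over the 6 libraries after each gene's mean was subtracted, among 322 other tested genes with a regular symbol. For Gbp2 these were Plce1, a phospholipase C (0.26), Lzts1 (0.28) and Tgtp1, an interferon-induced GTPase (0.28). Plce1 had 448, 397 and 462 CPM in wild type 1 to 3 and 301, 517 and 1048 in Yaf2KO 1 to 3, the lowest and the highest again in Yaf2KO 1 and 3. For Oasl2 they were Vrtn (0.16), the serine/threonine kinase gene Pim2 (0.18) and the fatty acid transporter gene Slc27a2 (0.18). Pim2 had 17788, 18172 and 17725 CPM in wild type and 23534, 19810 and 45057 in Yaf2KO, with Yaf2KO 3 highest. Between Gbp2 and Oasl2 themselves the difference was 0.46, which placed Oasl2 at rank 27 for Gbp2 and Gbp2 at rank 76 for Oasl2.

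The wider interferon pathway is thinly represented. Of 163 fixed symbols, some of them an older and a newer name of 1 gene, 18 are among the rows used here, Gbp2 and Oasl2 included. The symbols do not cover every interferon-induced gene, so other such genes may be among the rows. The 17 interferon ligands and receptors and the 20 JAK-STAT signalling genes, IRFs and regulators have 0 members there, so the signal upstream of both genes was not analysed. Summed over libraries, 17 of the 18 genes had more raw reads in Yaf2KO, as did 92.2% of all 1653 listed genes. In raw counts 11 of the 18 separated completely, beside 27.4% of all listed genes and 73.3% of those with a mean of at least 100 reads. On the scaled counts 9 could be tested and 0 were called in either direction, where 0.798% of all tested genes were (edgeR; 0 of the 9 had an unadjusted p under 0.05, and DESeq2 and limma-voom called 0). Their median log2 fold change was 0.21 with 6 of 9 above 0, and 0.04 with 4 of 7 above 0 without Gbp2 and Oasl2, beside a median of -0.03 with 180 of 376 above 0 over all tested genes. At equal depth 10 of 11 tested interferon genes were called, beside 75.7% of all 415 tested genes. The median log2 fold change was 2.14 for the interferon genes, near the 2.12 of all genes tested that way.

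Among the nucleic acid sensors 2 of 20 are in the rows. Zbp1, which senses Z-form nucleic acids, went from 28, 18 and 61 reads in wild type to 141, 136 and 79 in Yaf2KO, with a scaled log2 fold change of -0.19 (SE 0.55). Its raw counts did not overlap, but its scaled levels did. Tlr9, a receptor for unmethylated CpG DNA, had 1 read in all.

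The families of the 2 genes have few other rows. Gbp10, a further guanylate-binding protein gene, had 0, 1 and 0 reads in wild type and 1, 4 and 3 in Yaf2KO, too few to test. Oas1a, an oligoadenylate synthetase gene, had 14, 28 and 14 reads in wild type against 353, 100 and 26, with a scaled log2 fold change of 0.58 (SE 0.62). On the scaled counts it was highest in Yaf2KO 1 (727 CPM) and at 196 CPM in Yaf2KO 3, the opposite order of its relative Oasl2. Oas1d had 4, 3 and 4 against 33, 8 and 3 reads and was likewise highest in Yaf2KO 1 when scaled. Reads of these genes are uncertain because the Oas1 copies are close in sequence.

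The effectors differed in which Yaf2KO library was highest. Cxcl10, a chemokine gene, had 7, 11 and 10 reads in wild type against 45, 86 and 27, with a scaled log2 fold change of 0.53 (SE 0.63). Isg15, a ubiquitin-like modifier gene, had 4, 6 and 3 against 9, 31 and 9, and Rtp4 had 0 reads in wild type against 1, 11 and 1. Among the Yaf2KO libraries the scaled levels of these 3 genes were highest in Yaf2KO 2, as were those of the GTPase gene Tgtp1 (9, 6 and 7 against 33, 45 and 20 reads) and the ubiquitin ligase gene Herc6 (14, 4 and 12 against 56, 48 and 17). Tgtp1 also has a near-identical copy, so its reads are uncertain. Fibroblast markers were highest in the same library, and their part was not tested.

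Phf11d had 57, 71 and 125 reads in wild type and 1043, 327 and 73 in Yaf2KO, highest in Yaf2KO 1 also when scaled (log2 fold change 0.04, SE 0.55). The membrane-associated antiviral gene Ifitm2 had by far the most reads of the 18, with 1401, 1313 and 2800 in wild type against 8673, 4409 and 2597. Its scaled level was 20907, 22659 and 40415 CPM in wild type and 17865, 17392 and 19577 CPM in Yaf2KO, lower in all 3 Yaf2KO libraries than in any wild-type library, as in 4.26% of tested genes. It did not pass the test (edgeR, adjusted p = 0.95, log2 fold change -0.62 with an SE of 0.33), at equal depth its log2 fold change was 1.51, and its reads are uncertain because the Ifitm genes are close in sequence. Psmb8, a subunit of the immunoproteasome, had 3, 2 and 9 reads against 38, 19 and 27, Ifitm5 had 5, 4 and 13 against 28, 23 and 19, and Slfn2 had 1, 0 and 0 against 3, 4 and 7. These 3 genes, like Zbp1, Ifitm2, Gbp2 and Oasl2, had their highest scaled Yaf2KO level in Yaf2KO 3. Of the 15 interferon genes with at least 10 reads, 3, 5 and 7 were highest in Yaf2KO 1, 2 and 3, some of them on few reads. Only 9 of these 15 genes were among the 376 tested genes, so the 2 sets are unlike. Over all 376 tested genes the shares were 40.7%, 24.7% and 34.6%.

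**Figure D5:**
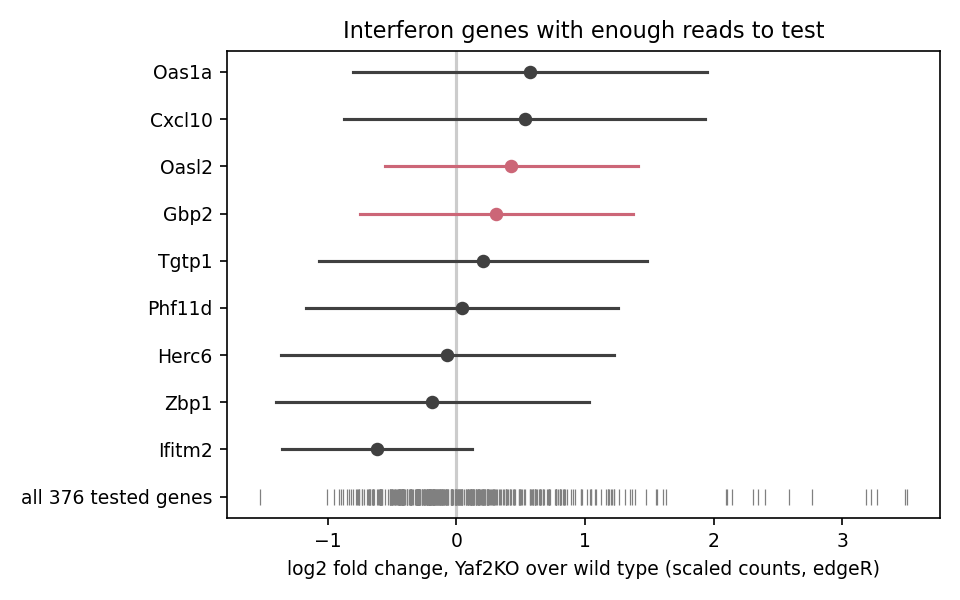
Fitted log2 fold changes (Yaf2KO over wild type, counts scaled on the listed genes, edgeR) with 95% intervals, Gbp2 and Oasl2 in red. Shown are the 9 genes of the fixed interferon symbols with enough reads to test, and ticks at the bottom are all 376 tested genes. All 9 intervals include 0, from Ifitm2 at -0.62 to Oas1a at 0.58.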

How the data were processed

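The deposited files hold raw read counts per gene for 1 library each, per the file headers. Per the submitters' processing notes, the build was mm10 and the tools included HTSeq 0.6.0, TopHat2 2.0.12 and Cufflinks 2.2.1, with no roles given; library totals were not used here. Groups and replicate numbers came from sample titles. The 1653 genes were filtered with filterByExpr by genotype, which left 376 genes. These were fitted with edgeR 4.0.16 (R 4.3.3, TMM factors, glmQLFit robust, glmQLFTest) and Benjamini-Hochberg adjustment at 0.05. Standard errors are the absolute log2 fold change divided by the square root of the test's F value. Intervals use these errors with a t quantile. Library sizes were the sums over all listed genes; a first fit summed the tested genes only and was replaced after its results were seen. Lengths and neighbours came from GENCODE vM21 (GRCm38). Alternatives used DESeq2 1.42.0, limma 3.58.1, other scalings, filters, thresholds, a replicate block and each library left out. Python 3.11.15, scipy 1.17.1 and pandas 2.3.3 did the rest. The members and lists were chosen with earlier results of these data known. Genes named were the members, listed interferon genes with at least 10 reads and the 3 most alike per member. Gbp10 and Tlr9, with fewer reads, were named after their values were seen. The result of 1 further marker list is not reported here.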

Additional observations from a re-analysis of the deposited data

How the results depend on the processing

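Library depth is the main limit: the listed genes are a part of each library, so a change shared by the whole list cannot be told apart from depth. At equal depth Gbp2 came to 2.10 and Oasl2 to 2.42, both called, with 314 listed and 10 interferon genes called. With single libraries left out Gbp2 ran from -0.057 (without Yaf2KO 3) to 0.67 and Oasl2 from 0.13 to 0.56, never called. Without a low-count filter Gbp2 came to 0.60 and Oasl2 to 0.73, and Gbp2 to 0.15 by limma-voom, none of them called. With library sizes summed over the tested genes only, the first fit made, Gbp2 came to 0.42 and Oasl2 to 0.52 (edgeR, adjusted p = 0.99 for both), with 3 listed genes called. The log2 ratio difference ran from -0.16 (without Yaf2KO 1) to 0.50. The 3 calls over all listed genes became 10 by the DESeq2 Wald test, 15 without a low-count filter, 15 at a mean CPM of at least 1, 0 by limma-voom (16 genes at an unadjusted p under 0.05), 0 at an adjusted p under 0.01 and 0 to 11 with single libraries left out. Fewer or more genes are tested under the filters, and the cause was not tested for the others. Adjusted p ran from 0.0224 to 1.0 for both genes over all alternatives. The interferon count was computed under each setting after the data were seen. Raw ratios stayed from 1.87 to 2.30 (Gbp2) and 2.03 to 2.61 (Oasl2) on the log2 scale.

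With the replicate number as a block Gbp2 came to 0.17, Oasl2 to 0.38 and the ratio difference to 0.23 (exact sign-flip p = 1.0), with 0 listed genes called (18 at an unadjusted p under 0.05). No label says that the numbers mark pairs, and the correlation across genes between deviations of libraries sharing a number was 0.04, 0.18 and 0.17, beside -0.35 to 0.25 for the 6 pairs with different numbers. Wild type 1 correlated best with Yaf2KO 2.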
